A study of Zea mays with 6 samples.

Results

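Sucrose synthase and cell wall invertase are enzymes through which a maize sink organ can take apart the sucrose it receives. The members here are the genes shrunken1 (sh1, Zm00001d045042), sucrose synthase1 (sus1, Zm00001d047253) and miniature1 (mn1, Zm00001d003776), 3 of the 46272 gene IDs counted. They were picked by ID for what they encode; the rule uses no measured value, but it was written with earlier results of these data known. RNA-seq counts came from young field-grown ears, 2 to 3 mm long, of 2 genotypes, WT plants of the B73 inbred line and plants carrying both the ra3 and the tpp4 mutation (ra3;tpp4), with 3 libraries each. The labels give neither the alleles of ra3 and tpp4, nor the line in which the mutants were grown, nor how many ears entered a library.

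Sucrose synthase splits sucrose in a reversible step into UDP-glucose, a precursor of starch and cellulose, and fructose. Cell wall invertase cleaves sucrose irreversibly outside the cell into glucose and fructose, which are then taken up. In maize kernels SH1 is the main sucrose synthase of the starchy endosperm, and plants that lack it have collapsed kernels. SUS1 is the related isoform known from many organs. MN1 is the cell wall invertase at the base of the endosperm, and its loss leaves small kernels. RAMOSA3, encoded by ra3, is an enzyme that removes the phosphate from trehalose phosphate, a sugar that is known in plants as a signal of sucrose supply, and tpp4 encodes another enzyme of that family. The comparison asks how the ear transcriptome differs between the double mutant and WT.

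Counts given to gene IDs totalled 19291332 to 26752609 in a library. Alignments that were not unique took 19.3% to 22.2% of all records in WT and 11.0% to 15.3% in ra3;tpp4, without overlap. Records without an alignment (5.54% to 6.14% against 1.57% to 5.39%), records given to no gene (31.1% to 34.5% against 22.3% to 24.7%) and the number of all records (38856142 to 39401401 against 24813290 to 33525037) also divided by genotype. The names sh1, sus1 and mn1 came with the IDs. The RefSeq gene table (Zm-B73-REFERENCE-NAM-5.0) lists all 3 symbols and ra3, but ties none of them to an ID of the counted kind. For this reason the tie of name to ID was not checked, ra3 and tpp4 were not looked up as a check of the genotypes, and none of 8 inflorescence marker genes was matched to check the tissue. Of 34 other genes of sucrose cleavage, transport and use that were listed by symbol, 16 were in that table and 0 were tied to a counted ID, so none is described.

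Ears of both genotypes held abundant sus1 and sh1 reads and almost no mn1 reads. In the edgeR fit with TMM scaling, the sus1 level was 1.23-fold higher in ra3;tpp4, but it did not pass the test across all gene IDs. In CPM every mutant library lay above every WT library, and the ratio of the means was 1.21. The sh1 level was 0.938 times that of WT in the fit and did not pass either. In CPM its libraries overlapped, and the ratio of the means was 0.922. Within each library, sus1 took more counts per sh1 count in the mutant, 3.19 ± 0.118 against 2.45 ± 0.171 in WT (mean and SD of 3 libraries).

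sus1 stood at 2041, 2112 and 2043 CPM (counts per 1000000 counts given to gene IDs) in WT replicates 1, 2 and 3. In ra3;tpp4 replicates 1, 2 and 3 it stood at 2645, 2265 and 2560 CPM. The genotypes did not overlap: the lowest mutant library, replicate 2, lay 1.07-fold above the highest WT library. The WT libraries were tight and differed by at most 1.03-fold, while the mutant libraries spread over 1.17-fold. The mean was 2065 ± 40.5 CPM over the 3 WT libraries and 2489.8 ± 199 CPM over the 3 mutant libraries (± SD). Libraries that do not overlap between genotypes in CPM were found for 19.9% of the 21127 tested IDs, so this feature is common in these data.

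The log2 change of sus1 between ra3;tpp4 and WT was 0.29 (SE 0.078), with a 95% interval of 0.12 to 0.47, or 1.09-fold to 1.38-fold. Its adjusted p was 0.109 (edgeR quasi-likelihood test with Benjamini-Hochberg adjustment over all tested IDs). The unadjusted p of 0.00332 was the 643rd smallest, and 2825 IDs had an unadjusted p under 0.05. In the same fit 310 IDs, 1.47% of those tested, had an adjusted p under 0.05, and 0 of the tested members, sh1 and sus1, were among them. A change at least as large as that of sus1, in either direction, was found for 21.9% of tested IDs. The call depended on the setting. The adjusted p of sus1 was 0.0137 in DESeq2, 0.0419 with no filter on low counts and 0.0126 without ra3;tpp4 replicate 2, in a range of 0.0116 to 0.362 over 15 alternatives, and the log2 change lay between 0.25 and 0.47 in all of them. The 4 alternatives that called sus1 were also those that called the most IDs. They called 846 of 21127 in DESeq2, 511 of 29851 with no filter and 471 of 21402 without ra3;tpp4 replicate 2. With all records as library size, 2128 of 21127 were called.

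sh1, which encodes the main sucrose synthase of the endosperm, stood at 801, 831 and 908 CPM in WT replicates 1, 2 and 3. In ra3;tpp4 replicates 1, 2 and 3 it stood at 796, 723 and 823 CPM. Replicates 1 and 2 of the mutant lay below all WT libraries, and replicate 3 lay within the WT range. The mean was 847 ± 55.3 CPM over the 3 WT libraries and 781 ± 51.8 CPM over the 3 mutant libraries (± SD). The log2 change was -0.09 (SE 0.080), with a 95% interval of -0.27 to 0.08, or 0.830-fold to 1.06-fold, and an adjusted p of 0.676 (edgeR). The interval spans a small fall, no change and a small rise. A change at least as large in either direction was found for 60.0% of tested IDs.

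**Figure D1:**
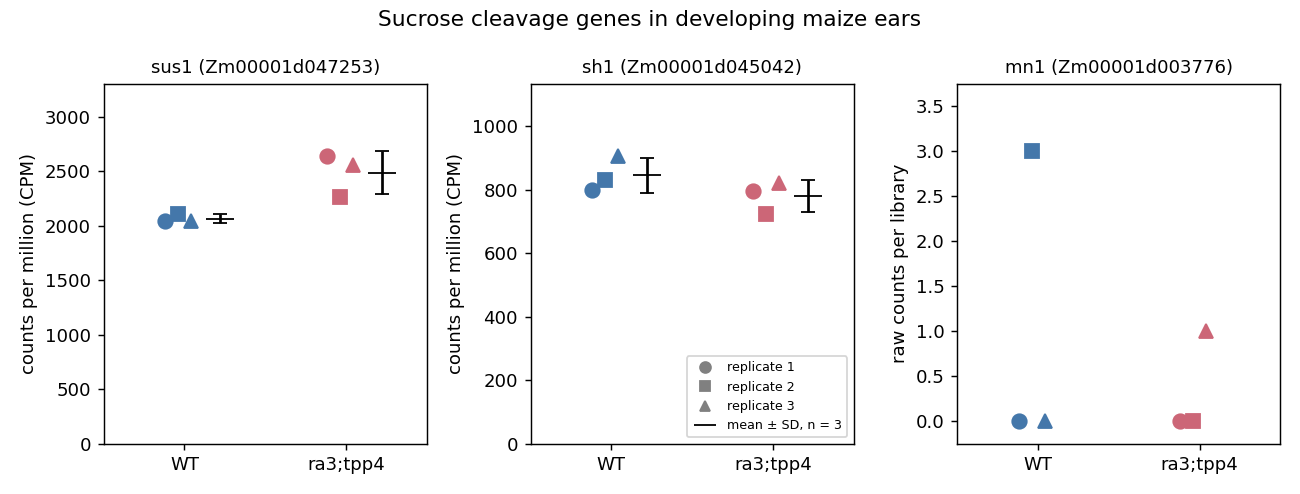
Levels of the 3 genes in each library, as CPM for sus1 and sh1 and as raw counts for mn1, with WT in blue, ra3;tpp4 in red, a symbol for each replicate, and black bars for the mean and SD over 3 libraries. The mutant sus1 libraries (2265 to 2645 CPM) sit above the WT libraries (2041 to 2112 CPM), the sh1 libraries overlap, and mn1 has counts in 2 of 6 libraries.

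mn1, the cell wall invertase gene of the kernel base, was close to the limit of detection. It had 0, 3 and 0 counts in WT replicates 1, 2 and 3. It had 0, 0 and 1 count in ra3;tpp4 replicates 1, 2 and 3. Only 2 of 6 libraries thus held any mn1 read, and the genotypes overlapped. A count of 0 allows up to 3 counts in a library. That is 0.116 CPM in WT replicates 1 and 3, and 0.125 and 0.119 CPM in ra3;tpp4 replicates 1 and 2. Summed over libraries, WT held 3 counts (exact 95% Poisson interval 0.619 to 8.77), or 0.0382 CPM, and ra3;tpp4 held 1 (0.0253 to 5.57), or 0.0146 CPM. The mutant to WT ratio of these rates was 0.381 with an exact 95% interval of 0.00726 to 4.75, which covers counting error only and leaves the direction undetermined. The filter on low counts removed mn1 from the test. Among all IDs, 16421 had no count in any library and 4156 had 1 to 4 counts in all. A read that fits several gene copies equally well is counted as not uniquely aligned, and how many mn1 reads did so was not tested.

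The order of the genes by reads was the same in all 6 libraries, with sus1 first, sh1 next and mn1 last. Transcript lengths were not used here, so this is an order of counts and not of transcripts per length. Over the 6 libraries sus1 held 332240 counts, sh1 119682 and mn1 4. sus1 took 0.204% to 0.211% of all gene counts in WT and 0.226% to 0.265% in ra3;tpp4, and ranked between 3 and 5 among all gene IDs by counts in every library. sh1 took 0.0801% to 0.0908% in WT and 0.0723% to 0.0823% in ra3;tpp4, so its shares overlapped. It ranked between 31 and 44 in WT and between 48 and 65 in ra3;tpp4. A rank also moves with the counts of other IDs. How many IDs have ranks that divide by genotype was not computed, so no change of sh1 is read from its ranks. At such counts the counting error of a library was at most 0.450% for sus1 and 0.793% for sh1. The spread between replicates was larger, with a coefficient of variation of 1.96% in WT and 8.01% in ra3;tpp4 for sus1, and of 6.54% and 6.64% for sh1. Counting error therefore does not limit the comparison for these genes, while the low counts of mn1 do limit its comparison.

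Among abundant IDs, the point estimates of both sucrose synthase genes lay outside the quartiles, as many IDs of any set do by definition. Among the 100 IDs with the highest mean log2 CPM, the median log2 change was 0.04, with quartiles of -0.03 and 0.15, and the extremes were -0.37 and 1.04. The change of sus1 was the 11th highest of the 100 and that of sh1 the 13th lowest. In this set 1 ID was called by edgeR. The variation between replicates that edgeR estimated was a biological coefficient of variation of 0.0809 for sus1 and 0.0821 for sh1. The trend for IDs of their abundance was 0.0876 and 0.0867. edgeR draws each estimate towards this trend, so nearness to it is partly built in and is not a separate result.

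**Figure D2:**
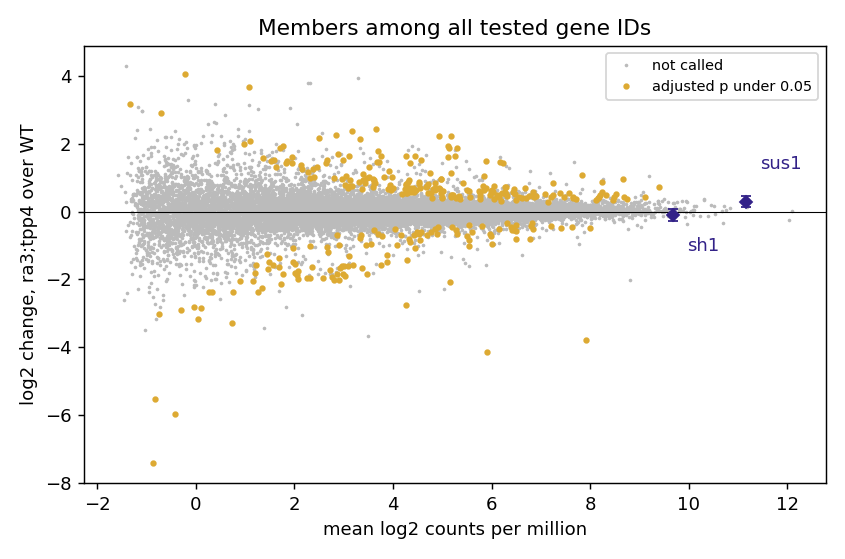
Log2 change (ra3;tpp4 over WT) against mean log2 CPM for all 21127 tested IDs, with the 310 called IDs in yellow and sh1 and sus1 as diamonds with 95% intervals. Both genes lie at the abundant end; the interval of sus1 lies above 0 and that of sh1 spans it.

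The ratio of the sucrose synthase genes to each other needs no scaling between libraries. In WT replicates 1, 2 and 3 there were 2.55, 2.54 and 2.25 sus1 counts per sh1 count. In ra3;tpp4 replicates 1, 2 and 3 there were 3.32, 3.13 and 3.11. Every mutant library lay above every WT library, and the gap between the genotypes was wider than the range within either. Of the counts of both genes together, sh1 made up 29.1% ± 1.48 in WT ears and 23.9% ± 0.664 in mutant ears (± SD, n = 3 for each genotype). The log2 ratio of sh1 to sus1 averaged -1.29 in WT and -1.67 in ra3;tpp4, a difference of -0.384, and an exact permutation test gave p = 0.1 (two-sided), the smallest that 3 libraries against 3 can give. The ratio to sus1 separated the genotypes for 46.9% of 21075 other tested IDs with counts in every library, and the ratio to sh1 for 20.9%. Separation of a ratio to sus1 is thus common in these data.

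The sum of both genes, a measure of all sucrose synthase reads described here, was 2841, 2943 and 2951 CPM in WT replicates 1, 2 and 3. In ra3;tpp4 replicates 1, 2 and 3 it was 3441, 2988 and 3383 CPM. The genotypes did not overlap, though replicate 2 of the mutant lay close to the highest WT library. Single IDs did not overlap in CPM for 19.9% of those tested. sus1 holds most of the sum, so this separation is not independent of that of sus1. The sum averaged 2912 ± 60.9 CPM in WT ears and 3271 ± 246 CPM in mutant ears (± SD, n = 3 for each genotype), a ratio of 1.12, with p = 0.1 in the exact permutation test (two-sided), again the smallest possible. The difference of 359 CPM became 274, 500.3 and 303 CPM without ra3;tpp4 replicates 1, 2 and 3, and 324 to 379 CPM without a WT library. Per 1000000 of all records, those given to no gene included, it was 559. The ears were sampled whole, so more cells with sus1 RNA and more sus1 RNA per cell cannot be told apart. Whether the library features that divided by genotype have a part in the sus1 and ratio values was not tested. A ratio of mn1 to the sucrose synthase genes was not computed, since 4 of 6 libraries had no mn1 count.

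**Figure D3:**
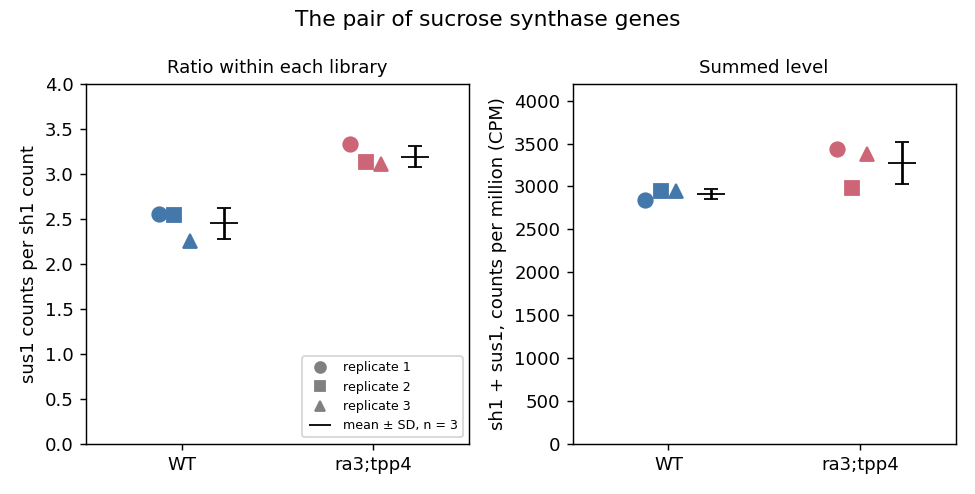
Left, sus1 counts per sh1 count within each library; right, the sum of sh1 and sus1 in CPM; symbols mark replicates and black bars the mean and SD over 3 libraries. The ratio is 2.25 to 2.55 in WT and 3.11 to 3.32 in ra3;tpp4, and the summed levels come closest between WT replicate 3 (2951 CPM) and ra3;tpp4 replicate 2 (2988 CPM).

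sh1 and sus1 shared their lowest library in each genotype, WT replicate 1 and mutant replicate 2. They differed in which library of each genotype was highest. The SD over the 6 libraries of the difference between their log2 CPM values was 0.22, a measure that holds both the genotype difference and the spread within genotypes. It was above the median of 0.18 for sh1 against 18356 IDs, where sus1 was the 12046th most alike. It was below the median of 0.23 for sus1 against the same number of IDs, where sh1 was the 8227th most alike. IDs were then picked for the smallest such SD over the same 6 libraries. A like order of libraries and a like log2 change follow from that choice and are not a separate result. The IDs most like sus1 by this SD were Zm00001d005118, at 0.0115, and Zm00001d042746, at 0.0250. In replicates 1, 2 and 3 Zm00001d005118 stood at 49.8, 51.3 and 50.6 CPM in WT, and at 64.1, 55.3 and 62.5 CPM in the mutant, so that it too was highest in replicate 1 and lowest in replicate 2 among the mutant libraries. Its log2 change was 0.29 and that of Zm00001d042746 was 0.27, and neither was called (edgeR adjusted p = 0.139 and 0.137). The IDs most like sh1 were Zm00001d044831, at 0.0175, and Zm00001d005252, at 0.0265. In the same order Zm00001d044831 stood at 135, 139 and 156 CPM in WT, and at 137, 124 and 142 CPM in the mutant, with WT replicate 3 highest and mutant replicate 2 lowest, as for sh1. The sources used here do not pair these 4 IDs with names.

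**Figure D4:**
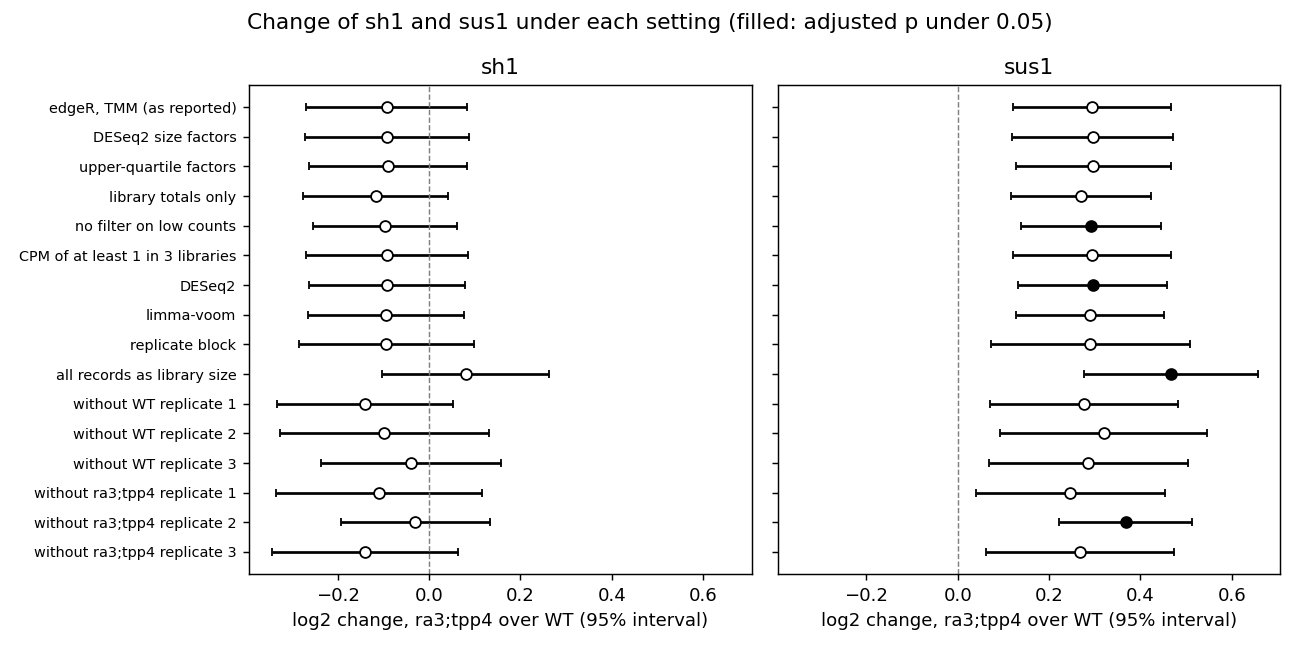
Log2 change of sh1 (left) and sus1 (right) with 95% intervals under the reported setting and 15 alternatives; filled points have an adjusted p under 0.05. All intervals of sus1 lie above 0, and 4 alternatives call it; all intervals of sh1 span 0, and its point turns to 0.08 with all records as library size.

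The sign of the sh1 change depended on the scaling. With all counted records as library size, including those given to no gene, the median log2 change of all tested IDs was 0.17. On that scale sh1 had a log2 change of 0.08 and sus1 of 0.47, with edgeR adjusted p of 0.530 and 0.0116. Relative to the median they were -0.09 and 0.30, close to the values above. In every other setting the log2 change of sh1 was between -0.14 and -0.03 and its adjusted p was at least 0.526.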

How the data were processed

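Polyadenylated RNA of 6 libraries was sequenced. The authors deposited 1 table of raw counts per gene ID from every library. Tools named in the submitters' processing notes are Trimmomatic 0.36, HISAT2 2.1.0, and HTSeq, with the build B73 RefGen_v4. The sources used here do not state the annotation, strand setting or parameters. Reads shared with overlapping or near-identical genes are therefore uncertain. The 5 closing HTSeq lines (22.3% to 34.5% of records) stayed out of CPM and tests.

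Counts of all IDs entered 1 edgeR 4.0.16 fit of genotype in R 4.3.3 (filterByExpr, TMM, robust quasi-likelihood F test, checked on simulated counts), with Benjamini-Hochberg adjustment over 21127 IDs and a threshold of 0.05. SEs and 95% intervals were derived from the F statistic. Single values were compared by exact permutation tests (Python 3.11.15, scipy 1.17.1). Alternatives were DESeq2 1.42.0, limma-voom (limma 3.58.1), other scalings and filters, a replicate block and leaving out each library. Intervals of summed counts are exact Poisson and cover counting error only. The series calls its replicates biological, and what was pooled in each is not given. The members, lists and tests were chosen with earlier results of these data known. The named IDs are the members and, for each tested member, the 2 tested Zm00001d IDs whose mean log2 CPM reached 1 and that had the smallest SD of the log2 difference.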

Additional observations from a re-analysis of the deposited data

How the results depend on the processing

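Over 15 alternatives sus1 stayed higher in ra3;tpp4 in all 15 and was called in 4. Its log2 change (reported 0.29) was 0.29 with no filter on low counts, 0.30 in DESeq2 and 0.47 with all records as library size, each called, and 0.25 to 0.37 when 1 library was left out, where only the fit without ra3;tpp4 replicate 2 called it. sh1 was called in 0 of 15. Its log2 change turned to 0.081 with all records as library size, a scaling chosen after seeing the data that moved the median of all IDs by 0.17. The count of called IDs, 310, was 511 with no filter, 846 in DESeq2, 2128 with all records as library size and 58 to 471 when 1 library was left out. The 471 came from the fit without ra3;tpp4 replicate 2. Per 1000000 of all records, mean sh1 was 565 in WT and 598 in ra3;tpp4, and mean sus1 1380.3 and 1907. These values are lower than the CPM because the denominator is larger. It grew more in WT, where gene counts were 65.52% to 68.85% of records, against 75.33% to 77.75% in ra3;tpp4, so the order of the sh1 means turned. The causes of the other shifts were not tested. The log2 ratio of sh1 to sus1 was between -0.41 and -0.32 with 1 library left out. Libraries share only a replicate number: deviations from the genotype means had correlations of -0.181, -0.123 and 0.154 for numbers 1, 2 and 3, and 2 of 6 libraries were closest to the one of like number. In the fit with a replicate block the calls numbered 290, the log2 changes were -0.09 for sh1 and 0.29 for sus1 (edgeR adjusted p = 0.732 and 0.238), and the ratio difference was -0.384 (exact sign-flip test, p = 0.25, the smallest possible). mn1 was tested only with no filter, at a log2 change of -1.08 with a 95% interval of -4.76 to 2.59 that depends on 4 counts (edgeR adjusted p = 0.842). The ratio of mn1 to the sucrose synthase genes and the test of the other sucrose genes gave no value. Among the members, low counts limit statements on mn1 alone.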
